A study of Cardamine hirsuta with 6 samples.

Results

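CARHR293050 is the *C. hirsuta* gene matched to *A. thaliana* *KRP1* (AT2G23430, KIP-RELATED PROTEIN 1). It is 1 of the 1876 genes that the annotation rows used here assign to a DAP-seq peak of ChCUC1. Its peak is 1 of 2432 in the list that the authors selected for reproducibility. The gene was chosen by its fold enrichment, the highest in that list, so its values are given here as a description and without a test. In DNA affinity purification sequencing (DAP-seq), a tagged transcription factor made in vitro captures fragments of naked genomic DNA, which are then sequenced. All 6 samples used *C. hirsuta* Oxford genomic DNA (about 5 µg, sheared to 200 to 400 bp), and the protocol names rosette leaves of 4-week-old plants where the tissue label reads seedlings. In 3 samples, titled ChCUC1_halo, the bait was ChCUC1 joined to the HaloTag, which binds the Magne HaloTag beads. The other 3 samples, titled halo, name the tag without the factor and are read here as the control. The assay uses no chromatin and no living cells, and so shows which DNA the protein can hold rather than what it holds in a leaf.

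KRP proteins bind complexes of cyclins and cyclin-dependent kinases (CDKs) and inhibit them, and thereby slow entry into the cell cycle. In *A. thaliana*, overexpression of *KRP1* yields small plants with fewer and larger cells and serrated leaves. CUC1 is a NAC-domain transcription factor of organ boundaries, where growth is locally low, and in *C. hirsuta* it is expressed at the sites where leaflets form. DAP-seq addresses which genes ChCUC1 could contact directly. No sequence of the *KRP1* locus is shown, since no matching genome was used here.

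The values come from 4 lists of peaks. The reproducible list was selected, by its name, on the irreproducible discovery rate. The whole-library list (4778 peaks) came from all reads of 1 ChCUC1 library. The longer (3753 peaks) and the shorter pseudoreplicate list (3253 peaks) each came from a random part of the reads of another library. These 3 single-library lists were called against the pooled Halo control, carry no replicate number, and are not independent of the reproducible list. Each peak has a fold enrichment at its summit over the background that the Halo control predicts there. Fold enrichment and p-value together fixed the number of fragments stacked at the summit (the pileup) and the background. Over all peaks of the 4 lists, every pileup came out within 0.00562 of a whole number, so the depth behind each value is known although reads were not used. Intervals below are 95% exact Poisson intervals of the pileup. They cover counting error only, not the error of the background or between libraries.

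At *KRP1*, the DNA captured by ChCUC1 was centred on the annotated start of the gene. The peak lay on scaffold NSCAFC.76 from 302404 to 302917, in the coordinates of the deposited lists (build not stated). Its summit was at 302658, 254 bp from its left end and 259 bp from its right end. The annotation places the peak in the category promoter-TSS (promoter and transcription start site) and puts its midpoint 22 bp upstream of where CARHR293050 starts. The strand of the gene is not given in the rows used here. For a gene on the plus strand the summit would lie 24 bp upstream of the start, and on the minus strand 20 bp upstream. The peak thus covered DNA on both sides of the start, by more than 200 bp in each direction.

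In the reproducible list, 667 fragments were stacked at the *KRP1* summit against a background of 68.1, a fold enrichment of 9.67 (95% interval 8.95 to 10.4). The whole-library list held 229 fragments against 23.7, or 9.29-fold (8.13 to 10.6). The longer pseudoreplicate list held 153 against 16.7, or 8.70-fold (7.38 to 10.2). The shorter pseudoreplicate list was the shallowest, with 59 fragments against 7.12, or 7.39-fold (5.65 to 9.49). All 4 intervals overlapped one another, and at *KRP1* the point value fell with the pileup. Other peaks did not all share this order. CARHR273710, next in fold enrichment, had 8.30-, 9.30- and 10.03-fold in the whole-library, longer and shorter list. In every list the *KRP1* value was well above the median over all peaks, which ranged from 2.37 in the whole-library list to 3.04 in the reproducible list. The −log10 of the authors' p-value was 404 in the reproducible list and 139, 90.4 and 33.8 in the single-library lists in the order above.

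**Figure D1:**
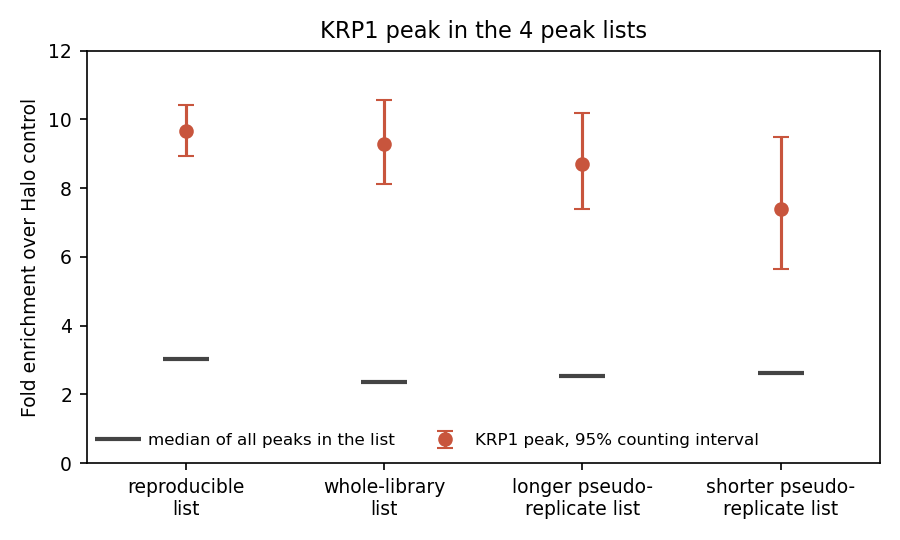
Fold enrichment over the Halo control (vertical axis) at the *KRP1* peak in each of the 4 lists (points; bars are 95% Poisson intervals of the pileup), with the median over all peaks of each list (dashes). The *KRP1* points run from 7.39 to 9.67, and the medians from 2.37 to 3.04.

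*KRP1* had an overlapping peak in all 3 single-library lists. Of the 2432 reproducible peaks, 98.8% overlapped a peak of the whole-library list (98.3 to 99.2%, 95% exact binomial interval), 92.1% one of the longer pseudoreplicate list (90.9 to 93.1%) and 65.0% one of the shorter (63.1 to 66.9%). A peak in each of the 3 lists was found for 1519 reproducible peaks, or 62.5% (60.5 to 64.4%). Being found in each list was therefore common and does not set the gene apart.

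The lists placed the summit almost at the same base. Relative to the reproducible summit, the summits lay 5 bp to the right in the whole-library list, 4 bp in the longer pseudoreplicate list and 6 bp in the shorter one. The 4 summits thus spanned 6 bp, whereas the median span over the 1519 peaks found in each list was 20 bp, and 85 of these peaks (5.60%), *KRP1* among them, spanned 6 bp or less. By single list, the median shift over these peaks, in either direction, was 5, 8 and 12 bp in the order above. The whole-library shift at *KRP1* was thus an ordinary one. Peaks of similar pileup were not compared separately. The ends of the *KRP1* peak varied more than its summit. It was 514 bp wide in the reproducible list, 522 bp in the whole-library list, 696 bp in the longer and 336 bp in the shorter pseudoreplicate list, where the median widths were 486.5, 424, 579 and 196 bp. The 336 bp of the narrowest call were contained in each of the others.

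**Figure D2:**
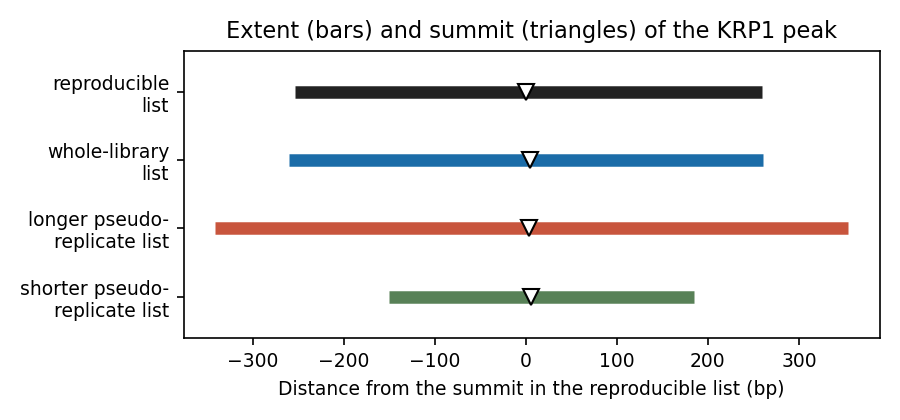
Extent (bars) and summit (triangles) of the *KRP1* peak in the 4 lists, by distance in bp from the summit in the reproducible list. The triangles fall within 6 bp of one another, and the bars differ from 336 to 696 bp in width.

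The value in the shorter pseudoreplicate list was low relative to the reproducible list. The ratio of the 2 folds was 0.764 at *KRP1*, against a median of 0.937 over the 1519 peaks, and 10.7% of these peaks had a lower ratio. At the median ratio, the fold would have been 9.06, which lies within the counting interval of the 59 fragments. In the whole-library list, the ratio was 0.961 at *KRP1* (median 1.01), with 23.0% of peaks lower, and in the longer pseudoreplicate list it was 0.90 (median 0.967), with 25% lower. Among the 152 of these peaks with the highest fold enrichment, the ratio for the shorter list had a median of 0.922 and ranged from 0.630 to 1.27. The *KRP1* ratio was inside this range but low in it, with 11.2% of the 152 peaks lower.

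*KRP1* headed the order of fold enrichment in the reproducible list, but its lead over the next peaks was within counting error. CARHR273710, with a peak in an intron, had a fold enrichment of 9.39 (8.68 to 10.1) from 640 fragments. CARHR147870 (match of AT3G26782) had 9.29 (8.64 to 9.97) from 767 fragments in an exon. CARHR242560, matched to *CAD-5* (AT4G34230), whose enzyme acts in lignin synthesis, had 9.06 (8.42 to 9.73) from 748 fragments, also in an exon. The intervals of these 3 peaks reached the *KRP1* value, and those of 11 peaks overlapped the *KRP1* interval. Single lists ordered them differently. *KRP1* ranked 1 of 4778 in the whole-library list, 3 of 3753 in the longer and 29 of 3253 in the shorter pseudoreplicate list, where CARHR147870 had 10.2 and CARHR273710 10.03.

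The place of *KRP1* in this order came from both a high pileup and a low background. By pileup alone, its 667 fragments ranked 17 in the reproducible list, whose highest pileup was 810. The background of 68.1 was near the lowest of the list, 65.4, and 12.9% of the peaks had a lower one; the median was 76.8. Over that median background, the 667 fragments would give 8.58-fold. By the −log10 of the p-value, *KRP1* ranked 5. In the shorter pseudoreplicate list, the background of 7.12 at the summit was above the median of that list, 6.72, whereas in the other 2 single-library lists it was below the median (23.7 against 26.4, and 16.7 against 18.4).

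**Figure D3:**
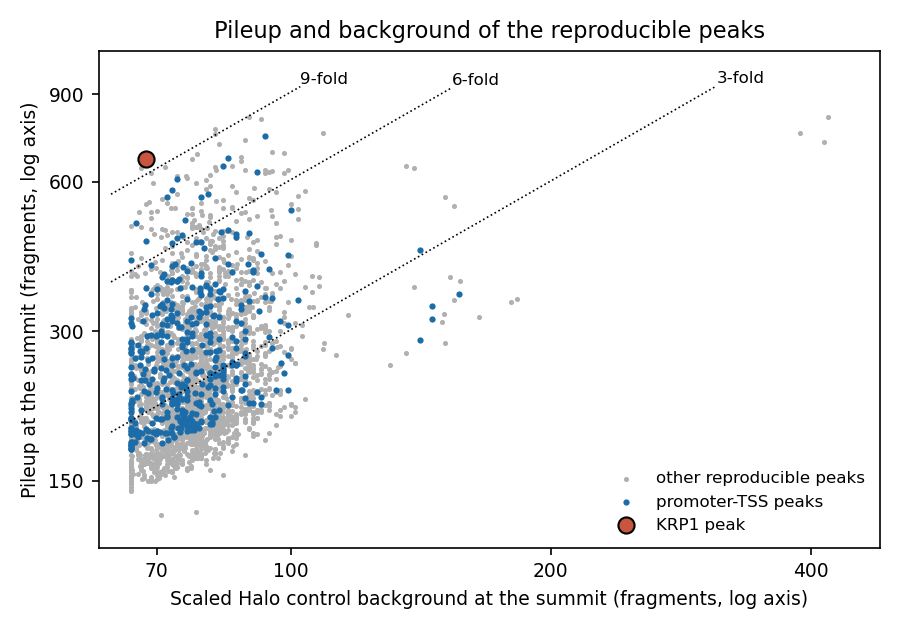
Pileup at the summit (vertical, fragments) against the scaled Halo control background (horizontal, fragments) for the 2432 reproducible peaks, both on log axes; promoter-TSS peaks in blue, *KRP1* in red, dotted lines at 3-, 6- and 9-fold. *KRP1*, at 667 and 68.1, is the blue class's most enriched peak and lies near the left edge.

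Among the 392 reproducible peaks of the category promoter-TSS, whose median fold enrichment was 3.29, *KRP1* stood further ahead. Their distances from the assigned gene start ran from -1000 to 805 bp, and 42 of them lay more than 100 bp downstream of it. Next came CARHR232380 (match of AT4G24990) with 8.11 (7.48 to 8.78), CARHR268760 (AT5G55450) with 7.86 (7.31 to 8.45) and CARHR077960 with 7.83 (7.25 to 8.44). None of the intervals of the other promoter-TSS peaks overlapped that of *KRP1*. Since *KRP1* was chosen for this same value and the intervals cover counting error only, the separation is a description and not a test. These 3 peaks had their midpoints at -918, -399 and -231 bp from the gene start, negative being upstream. Of the 51 reproducible peaks with a midpoint within 50 bp of a gene start, which had a median fold enrichment of 3.44, the highest after *KRP1* was CARHR038430 with 6.18 (5.63 to 6.77). Both sets come from the 1997 peaks with an annotation row. The other 435 could not be classed, so these medians do not cover the same peaks as the median of 3.04 over the whole list. The lead within promoter-TSS peaks was not kept in every single list. In the shorter pseudoreplicate list it was reversed. Several promoter-TSS peaks there exceeded the 7.39-fold of *KRP1*, CARHR268760 with 9.15-fold among them, while CARHR232380 (7.11) and CARHR077960 (7.15) were lower.

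**Figure D4:**
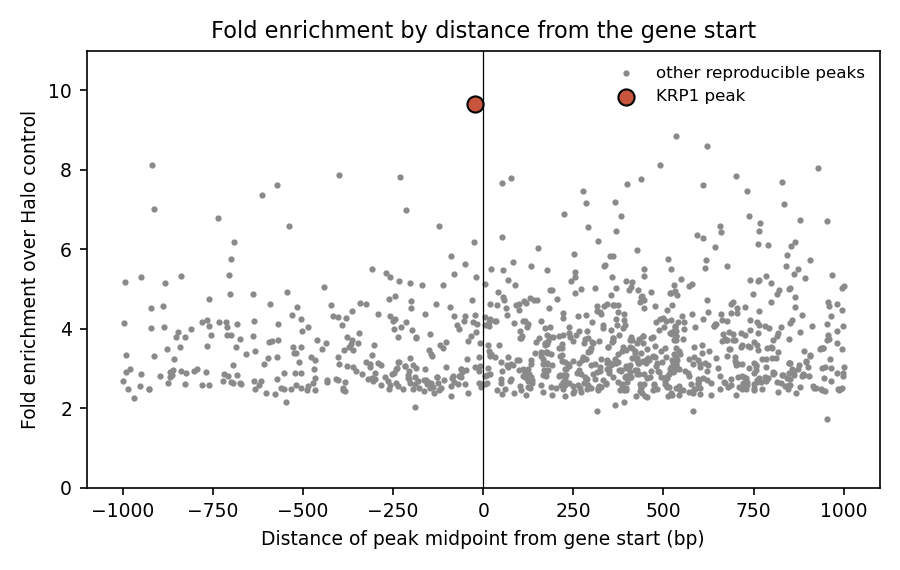
Fold enrichment over the Halo control (vertical) against the distance of the peak midpoint from the assigned gene start (horizontal, bp, negative upstream) for reproducible peaks within 1000 bp of a start. *KRP1*, at -22 bp and 9.67, is the highest point, and the other peaks within 50 bp of a start reach 6.18.

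Over the 3 single-library lists, 5 peaks were picked out as having fold enrichments most like those of *KRP1*. Since *KRP1* was chosen for its high fold, peaks near it on this measure had to be strong as well. Likeness was measured as the Euclidean distance of the log2 fold enrichment over the 3 lists, among the 1519 peaks found in each. The nearest was CARHR126740 (match of AT2G32800) at a distance of 0.148, with 8.87, 8.19 and 7.91 in the whole-library, longer and shorter list. *CAD-5* followed at 0.180, CARHR089270 at 0.266, CARHR071460 (AT1G78000, in *A. thaliana* the sulfate transporter gene *SULTR1;2*) at 0.279 and CARHR032500 at 0.308. None of these 5 peaks was in the category promoter-TSS. That category held 19.6% of the annotated peaks, so its absence among 5 peaks says nothing particular about *KRP1*. The lists share the Halo control, and the distances are a description with no test.

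Scaffold NSCAFC.76, which carries *KRP1*, held few other peaks. The reproducible list had 3 peaks on it, or 6.72 per Mb up to the last peak of any list at 446695, against 10.995 to 15.3 per Mb on the 8 chromosomes. With 3 peaks, this density is coarse. Both others were of ordinary strength, ranking 1204 and 1673 of 2432 by fold, and lay more than 100 kb from *KRP1*. The peak assigned to CARHR292940 (match of AT2G23300, which encodes a leucine-rich repeat protein kinase) lay in an exon, from 195787 to 196258, with 2.65-fold (2.29 to 3.05) from 195 fragments. It was also found in each single-library list, with 2.99-fold in the whole-library list, 2.94-fold in the longer and 3.63-fold in the shorter pseudoreplicate list. The intergenic peak nearest to CARHR292870 lay from 136369 to 136827, with 3.06-fold (2.68 to 3.48) from 231 fragments. It was found in the whole-library list (3.15-fold) and in the shorter pseudoreplicate list (2.71-fold) and not in the longer one. The fold enrichment at *KRP1*, chosen as the highest of the list, was thus more than 3 times that of either neighbour.

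The remaining peaks on the scaffold were each called in 1 list only. The whole-library list had 4 of them, with fold enrichments from 1.88 to 2.53 and pileups of 52 to 62 fragments, the nearest 51.0 kb from the *KRP1* summit. The shorter pseudoreplicate list had 7, from 2.03- to 2.48-fold on pileups of only 14 to 19 fragments, the nearest 27.8 kb away. The −log10 of the q-value was at most 1.22 for these 7 peaks, and from 3.37 to 7.63 for the 4 of the whole-library list. The longer pseudoreplicate list had no such peak. Around *KRP1* itself, no list held a further peak whose summit was nearer than 27.8 kb.

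**Figure D5:**
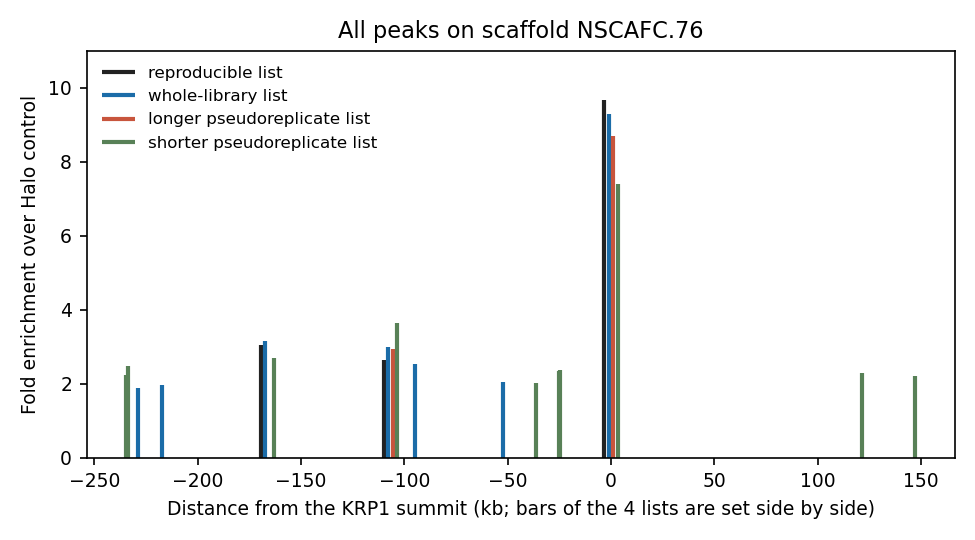
Fold enrichment (vertical) of every peak on scaffold NSCAFC.76 in the 4 lists (colours) by distance from the *KRP1* summit in kb (horizontal; bars of different lists are shifted sideways by a few kb so that they do not hide each other). Bars of all 4 lists stand at *KRP1* and at CARHR292940, at -107 kb, and every bar outside *KRP1* is below 4-fold.

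Of a list of 70 *A. thaliana* cell cycle genes, 2 were matches of genes with a reproducible peak in the annotation rows used here. For scale, the 1345 genes with a peak and an *A. thaliana* match would be 4.48% of the 30029 protein-coding genes that RefSeq lists for another *C. hirsuta* assembly. Against a share of this size, counts of 0 or 1 in groups this small say nothing particular about the groups, and the members are given as a description. *KRP1* was the 1 member with a peak among 7 *KRP* genes, and none of 9 *SIM* and *SMR* genes, which encode another family of CDK inhibitors, had one. None of 10 D-type cyclins, the main partners of CDKs at the start of the cycle, had a peak. The same held for 13 genes for CDKs and associated proteins, 9 genes for RBR, E2F and DP factors, which control the genes of DNA replication, and 3 activators of the anaphase-promoting complex. Of 19 A- and B-type cyclins, *CYCA3;1* (CARHR180910) was assigned an intergenic peak of 2.97-fold (2.57 to 3.41) from 196 fragments, 20897 bp from the gene start and called in each of the 3 lists. These counts are lower limits, since 435 of the 2432 reproducible peaks had no annotation row here, and not all of the 1876 genes had an *A. thaliana* match.

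In the other gene lists of the study, CARHR293050 had no row. It was absent from the differentially expressed genes at 2 h, 4 h and 6 h after *ChCUC1* induction, held in full (1532, 1085 and 513 rows). It was also absent from the 1583 rows used here for 8 h, which lacked 166. For scale, RefSeq lists 30029 protein-coding genes for another *C. hirsuta* assembly. Most genes are thus absent from each of these lists, and absence from them is not particular to *KRP1*. Nor was it in the list of 422 genes shared by the ChIP-seq and DAP-seq peaks. It was also not among the 28 targets, which the paper took as shared genes that also responded to *ChCUC1* induction. Absence from the 28 follows from absence from the 422 and adds nothing to it. Most of the 1876 genes assigned a DAP-seq peak here were absent from these 2 lists too, so this does not set the gene apart. A further list, of responsive leaf genes, was not used here. The paper defines these genes by differential expression at more than 1 time point. With no row at 2 h, 4 h or 6 h, CARHR293050 does not meet that definition, whatever the 166 rows lacking for 8 h hold. The 1997 ChIP-seq rows used here, with 4208 others not used, held 1 peak on the scaffold, which was assigned to CARHR292990 (match of AT2G23360) and did not overlap the *KRP1* peak. The list of 422 genes was held in full. If it names every gene with both kinds of peak, the study assigned no ChIP-seq peak to CARHR293050. Being unlisted does not show that the gene did not respond, since genes below the thresholds of those lists are not distinguished from genes that were not expressed.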

How the data were processed

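The members, the gene list and the comparisons were chosen with earlier results of these data known. Bowtie, MACS2 and bedtools are named in the processing notes of the submitters. Their versions, and the build, are not given in the sources consulted. By their names, the single-library lists were made after removal of duplicates and called at a p-value threshold of 0.01. The fold enrichment (a ratio over the Halo control), the −log10 of the p-value and q-value, the summit and the score, at most 1000, are the authors' deposited values.

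Pileup and background were solved for each peak from the authors' fold, read as (pileup + 1)/(background + 1), and their p-value, read as a Poisson upper tail. They were to be printed only if at least 90% of pileups were within 0.05 of a whole number; 100% were. On 500 simulated peaks the solution returned 500 pileups. Peaks were matched at an overlap of at least 1 bp, taking the strongest where several overlapped, in Python 3.11.15 with pandas 2.3.3, NumPy 2.4.6, SciPy 1.17.1 and matplotlib 3.10.9. Gene, category and distance came from the study's peak annotation, joined by position (1997 of 2432 peaks); that the distance refers to the peak midpoint was checked on 111 genes with several peaks, of which 102 gave 1 start within 2 bp.

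Named were *KRP1*, genes of other peaks on the scaffold, the next 3 peaks in the order of fold over all and over promoter-TSS peaks, the 5 most alike profiles, and cell cycle genes with a peak. CARHR038430, CARHR292990 and the further values of named genes were added after their values were seen. Alternatives were other overlaps, thresholds and orders, each list left out, and a fold without the added 1.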

Additional observations from a re-analysis of the deposited data

How the results depend on the processing

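No paired analysis was possible because no list has a replicate number, the control was pooled, and no value came from a test. A peak at *KRP1* was found in all 3 lists at an overlap of 50% of both peaks, with summits within 100 bp, at a −log10 q of at least 5 and in the top 50% of each list, and in both remaining lists with any list left out, which could not differ. The rank of the *KRP1* peak, 1 by fold enrichment, was 5 by −log10 p and by −log10 q and 4 by the mean of list-scaled folds over the single-library lists. By the fold in the single-library lists it was 1, 4 and 29 among the reproducible peaks, in the whole-library, longer and shorter list. In the longer list it ranks 3 among its own peaks. By pileup, an order chosen after seeing the data, the rank was 17. By fold over the median background, also chosen then, it was again 17. That could not differ, since 1 background is used for all peaks. Reproducible peaks on the scaffold came to 2 with the top score, with a peak in each list, or at a fold of at least 3. Cell cycle genes with a peak came to 1 within 3000 bp of the gene start and 1 at a fold of at least 3, the gene lost being *CYCA3;1*. Without the added 1 in the fold, the pileups at *KRP1* were 673, 235, 159 and 64.3, each within its counting interval; over the first 300 peaks listed in each file, 10 to 16.7% of such pileups were whole. Depth limits the shorter pseudoreplicate list most, where the *KRP1* value rests on 59 fragments.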

Other observations

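The reproducible list appears to hold the pooled ChCUC1 libraries. If each pseudoreplicate holds an equal share of 2 of its library's reads, doubling the pseudoreplicate pileups and adding that of the whole library gives 653 fragments at *KRP1*, against 667 in the reproducible list. The ratio of the reproducible pileup to this sum was 1.021 at *KRP1*. Over the 1519 peaks found in each list its median was 0.987, with quartiles of 0.951 and 1.018, so *KRP1* lay just above the upper quartile. The lowest background of the lists, added in the same way, came to 65.8, against 65.4 in the reproducible list. On that reading, the whole-library list stands for 34.4% of the pooled depth, the library of the longer pseudoreplicate list for 47.9% and that of the shorter for 17.6%, so the list in which *KRP1* ranks lowest weighs least in the reproducible value. The share of reads in a pseudoreplicate was not tested.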
